A study of Mus musculus with 6 samples.

Results

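The 39 genes described here make up the core machinery of DNA replication, from the proteins that mark and license origins to the helicase, the polymerases, the sliding clamp and the enzymes of nucleotide supply. They were taken by name from a table of 26014 genes, all 39 names were found once each, and 38 passed the filter on low values described below. The rule that names them uses no measured value, but the members were chosen with earlier results of these data known. RNA came from mouse fetal livers at embryonic day 14.5, as 3 libraries labelled Gata1 3′ UTR knockout (KO) and 3 labelled wild type (WT). Both groups were untreated. The sources used here name neither the strain nor the extent of the deletion, and do not say whether a library is 1 embryo or several. P-values therefore reflect the spread between these libraries, part of which may be technical. The labels name the cells as embryonic hepatocytes and give no sort, while globin genes took 22.4% to 24.9% of the summed FPKM in KO and 26.5% to 29.6% in WT. Klf1, an erythroid transcription factor, had 231, 229.8 and 250.3 FPKM in the KO libraries, against 292, 284 and 333 FPKM in the WT libraries.

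DNA replication starts when the origin recognition complex, Cdc6 and Cdt1 load the ring of Mcm2 to Mcm7 onto DNA. The ring becomes the active helicase when Cdc45 and the GINS complex bind it, after which primase and the polymerases copy both strands behind it. Most genes of this machinery are known to be switched on together by E2F transcription factors as cells leave G1. In the mouse fetal liver, red cell precursors divide rapidly, so this machinery is in heavy use there.

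Levels are given as FPKM, which divides a gene's fragments by its exon length and by the library's depth. The length here is that of all annotated exons merged, which can exceed that of the transcript made. Levels of different genes are therefore compared only per annotated exon base, and their order may reflect the annotation. The 6 libraries held about 14800000 to 16200000 fragments, as read from the steps of the low values. Gata1, the erythroid transcription factor whose 3′ UTR was targeted, had 67.2, 67.7 and 68.2 FPKM in the KO libraries, against 143, 142 and 166 FPKM in the WT libraries, a log2 fold change of -1.13 ± 0.069 (SE) (limma, adjusted p = 0.000638), and the libraries did not overlap. FPKM counts fragments over all exons, so less RNA and deleted UTR sequence cannot be told apart in this value. All fold changes are KO over WT on the log2(FPKM + 1) scale, from limma fitted over 11142 genes with a mean of at least 1 FPKM, with p-values adjusted over all of them by the Benjamini-Hochberg method and called below 0.05. In bulk tissue, fewer cells of a type and less RNA per cell cannot be told apart.

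The replication genes were selected by function, and many of their promoters carry a sequence feature that this rule did not use. Windows from 250 bases before to 50 bases after the gene start were matched by symbol in RefSeq (GRCm38.p6) for 31 of the 39 genes. The E2F words searched, on both strands and with overlaps counted, were TTTCCCGC, TTTCGCGC, TTTGCCGC and TTTGGCGC. At least 1 of them stood in a window of 13 of the 31 genes (41.9%), against 2.6% of 27025 genes with a window. Among tested genes with a window the count was 13 of 30 replication genes (43.3%), against 5.15% of 7908 genes. A match is a string of letters and not a measured binding site. The windows below show such a word in 5 members of different roles, each as 30 bases 5′ to 3′ on the strand of the gene, with 1 word or its reverse complement in capitals. The stretches of Mcm5 and Rfc3 each hold a further match, which is partly or wholly in lower case.
Orc1 (chr4:108579416-108579445, plus strand, GRCm38.p6): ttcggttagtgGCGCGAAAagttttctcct
Cdc6 (chr11:98908002-98908031, plus strand, GRCm38.p6): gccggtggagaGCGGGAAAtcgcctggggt
Mcm5 (chr8:75109345-75109374, plus strand, GRCm38.p6): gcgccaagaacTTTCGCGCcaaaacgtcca
Mcm6 (chr1:128359734-128359763, minus strand, GRCm38.p6): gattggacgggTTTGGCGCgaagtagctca
Rfc3 (chr5:151651200-151651229, minus strand, GRCm38.p6): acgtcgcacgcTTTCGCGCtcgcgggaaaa
The first capital stood at position -27 in Orc1 and at -47 in Mcm6, counted from the start of the RefSeq window's gene as 0, which for Orc1 differs from the start in the FPKM table given below. Orc2 and Rrm2, whose values are given below, held none of the 4 words in their windows. The CCAAT box (CCAAT, both strands) stood in 21 of the 31 genes (67.7%), against 41.1% of all genes with a window. The words AGATAA or AGATAG or TGATAA or TGATAG, which the GATA factors are known to bind, stood in 6 of the 31 (19.4%), against 33% of all genes. For the CCAAT box and these words the share among tested genes was not counted, while for the E2F words it was 5.15% against 2.6%. The 6 genes with a GATA word were Cdc45, Fen1, Mcm7, Orc2, Pola1 and Pold2. Of them Orc2 fell in KO. Cdc45, Mcm7, Pola1 and Pold2 were not called, with log2 fold changes of -0.08, -0.06, 0.01 and -0.01, and Fen1 was not tested. Whether these words have a part in the values was not tested. A further Orc2 window held no GATA word. The Orc2 word, read as the reverse complement, began at position -198, as shown in capitals.
Orc2 (chr1:58505290-58505319, minus strand, GRCm38.p6): aatccatcttcaTTATCTtttttttttttt

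Of the 38 tested replication genes 2 fell in KO, Orc2 and Orc1, and none rose (limma, adjusted p under 0.05). For comparison, 9.55% of all 11142 tested genes were called, 3.62% lower and 5.93% higher, and the share of the replication genes called lower, 2 of 38, is near this background. At an unadjusted p under 0.05 there were 4 replication genes, all lower in KO, namely Orc1, Orc2, Prim2 and Rrm2, against 28.7% of all tested genes. A test with limma's voom on recovered fragments, chosen after the data were seen, called 3 lower (Orc1, Orc2 and Rrm2) and again none higher. Without KO replicate 1 or KO replicate 2 none of the 38 was called, without KO replicate 3, WT replicate 2 or WT replicate 3 Orc2 was called, and without WT replicate 1 Orc1, Orc2 and Prim2 were called. The median log2 fold change of the 38 genes was -0.07, against 0.09 for all tested genes. Libraries of the groups did not overlap for 5 of the 38 (Orc1, Orc2, Prim2, Rfc2 and Rrm2), each lower in KO, against 8.8% of all tested genes not overlapping with KO lower and 26.8% with KO higher. Negative log2 fold changes numbered 30 of 38 in the deposited FPKM, beside 3190 of 11142 for all tested genes. Those of the replication genes numbered 38 after median-of-ratios scaling and 7 after TPM scaling, where the share of all genes was not counted. TPM scaling moved the median of all genes to 0.20, and the median of the replication genes minus that of all genes was -0.17 in deposited FPKM, -0.18 after median-of-ratios scaling and -0.15 after TPM scaling. Among all tested genes 661 were higher and 403 lower as deposited, against 252 and 495 with median-of-ratios scaling and 777 and 134 with TPM scaling.

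**Figure D1:**
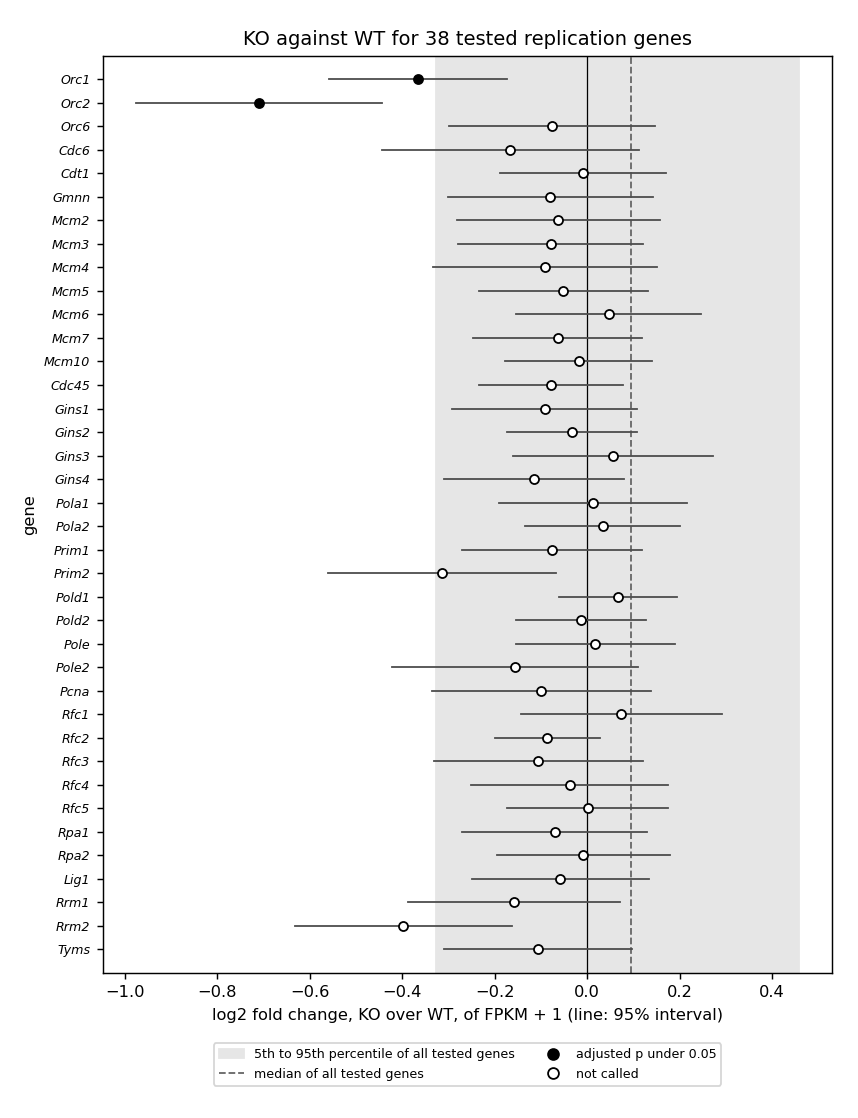
Log2 fold change of KO over WT (x axis, log2 of FPKM + 1) for the 38 tested replication genes (y axis), with 95% intervals from limma. Filled points are Orc1 and Orc2, the 2 called genes, and the grey band runs over most tested genes, -0.33 to 0.46, with their median of 0.09 dashed.

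Both genes that fell encode subunits of the origin recognition complex, which binds origins and serves as the platform for licensing. Orc2, a core subunit, had 14.5, 14.5 and 15.2 FPKM in the KO libraries, against 20.4, 26.8 and 27.6 FPKM in the WT libraries. Every KO value was under every WT value, and the KO libraries were close to each other while WT replicate 1 stood below the other WT libraries. KO reached 59.1% of the WT level, with a mean of 14.7 ± 0.4 FPKM in KO and 24.9 ± 3.95 FPKM in WT (SD, n = 3 each). This is a log2 fold change of -0.71 ± 0.112 (SE) (limma, adjusted p = 0.0157), at place 130 of 11142 counted from the most lowered gene. The values rest on 877 to 915 fragments per KO library and 1165 to 1695 per WT library. The gene, ENSMUSG00000026037, runs from 58462771 to 58505109 on the minus strand of chromosome 1 (GRCm38). Of its 3857 merged exon bases 29.8% are also exon of Nif3l1 on the other strand, and the sources used here do not say if fragments were counted by strand. Nif3l1 itself had 3.75, 3.60 and 3.72 FPKM in the KO libraries, against 3.48, 4.09 and 3.58 FPKM in the WT libraries, and these values overlapped. Orc2 missed the threshold after TPM scaling (adjusted p = 0.057) and after scaling to non-globin FPKM (adjusted p = 0.0633). It also missed it when KO replicate 1 or KO replicate 2 was removed, with adjusted p of 0.0725 and 0.0714. Without WT replicate 3 it held, at a log2 fold change of -0.63 (adjusted p = 0.0463).

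Orc1, the subunit that in human cells is known to be degraded during S phase, also fell. Its values were 8.22, 8.21 and 8.93 FPKM in the KO libraries, against 9.96, 11.7 and 11.9 FPKM in the WT libraries, so the groups did not overlap, with 75.4% of the WT level in KO. This is a log2 fold change of -0.37 ± 0.0814 (SE) (limma, adjusted p = 0.0402). The gene, ENSMUSG00000028587, lies on the plus strand of chromosome 4 from 108579423 to 108614833, and it was counted with 449 to 486 fragments in KO and 513 to 663 in WT. The Orc1 call was kept in 1 of the 6 leave-one-out fits, the one without WT replicate 1. It was also lost with no filter and with TPM and non-globin scaling, where adjusted p reached 0.253. Orc6, the small subunit, had 36.8, 38.2 and 39.1 FPKM in the KO libraries, against 34.6, 41.8 and 44.6 FPKM in the WT libraries, and all KO values lay within the WT range. Of the subunits outside the 39 genes, none of Orc3, Orc4 and Orc5 passed the test (limma, adjusted p of 0.568, 0.639 and 0.753). The level of Orc2 over that of Orc6, a ratio chosen after the values were seen, was 0.378 to 0.395 in KO and 0.589 to 0.642 in WT, and Orc1 over Orc6 was 0.215 to 0.229 in KO and 0.268 to 0.288 in WT. Neither ratio overlapped between the groups. Both were chosen after Orc1 and Orc2 were seen to be apart, so this adds no support to their calls.

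The licensing factors that act after the origin recognition complex did not pass the test. Cdc6, the ATPase that joins the complex at origins, had 38.8, 39.6 and 39.7 FPKM in the KO libraries, against 37.3, 44.1 and 52.9 FPKM in the WT libraries, a narrow KO range inside a wide WT range. Cdt1, which delivers the MCM ring, had 54.6, 59.3 and 56.7 FPKM in the KO libraries, against 54.2, 54.2 and 63.7 FPKM in the WT libraries. Its inhibitor geminin, encoded by Gmnn, had 64.6, 72.4 and 75.0 FPKM in the KO libraries, against 65.8, 79.1 and 79.7 FPKM in the WT libraries. The values of all 3 overlapped between the groups. The ratio of Cdt1 to Gmnn averaged 0.807 ± 0.0461 in KO and 0.769 ± 0.0736 in WT (SD, n = 3 each). This difference was smaller than the spread between libraries.

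The 6 subunits of the MCM ring stood at high and similar levels in both groups, 81.6 to 169 FPKM in KO and 85.0 to 183 FPKM in WT. By mean level they ranked at percentiles 95.2 to 97.7 of tested genes. Mcm2 was the lowest and Mcm5 the highest of the 6 in every library, by a factor of 1.76 to 1.85 in KO and 1.74 to 1.82 in WT. This order is per annotated exon base, and the merged exons are 6956 bases for Mcm2 and 3993 for Mcm5. Mcm2 had 81.6, 91.3 and 93.2 FPKM in the KO libraries, against 85.0, 88.8 and 105 FPKM in the WT libraries. Mcm5 had 151, 161 and 169 FPKM in the KO libraries, against 155, 161 and 183 FPKM in the WT libraries. For both, WT replicate 3 was the highest library and the other libraries of the groups were interleaved. Mcm3 had 123, 132 and 136 FPKM in the KO libraries, against 125, 136 and 154 FPKM in the WT libraries. Mcm4 had 91.6, 95.9 and 98.9 FPKM in the KO libraries, against 87.8, 102 and 117 FPKM in the WT libraries, and Mcm7 had 134, 146 and 152 FPKM in the KO libraries, against 139.6, 149 and 165 FPKM in the WT libraries. Mcm6 had 138, 141 and 144 FPKM in the KO libraries, against 121, 138 and 152 FPKM in the WT libraries. Its log2 fold change was 0.05 as deposited and -0.05 with median-of-ratios scaling, so its direction depends on the scaling. None of the 6 passed the test (limma, adjusted p of 0.568 to 0.743), and all 95% intervals of the log2 fold changes lay between -0.33 and 0.25. The KO and WT libraries overlapped for all 6.

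**Figure D2:**
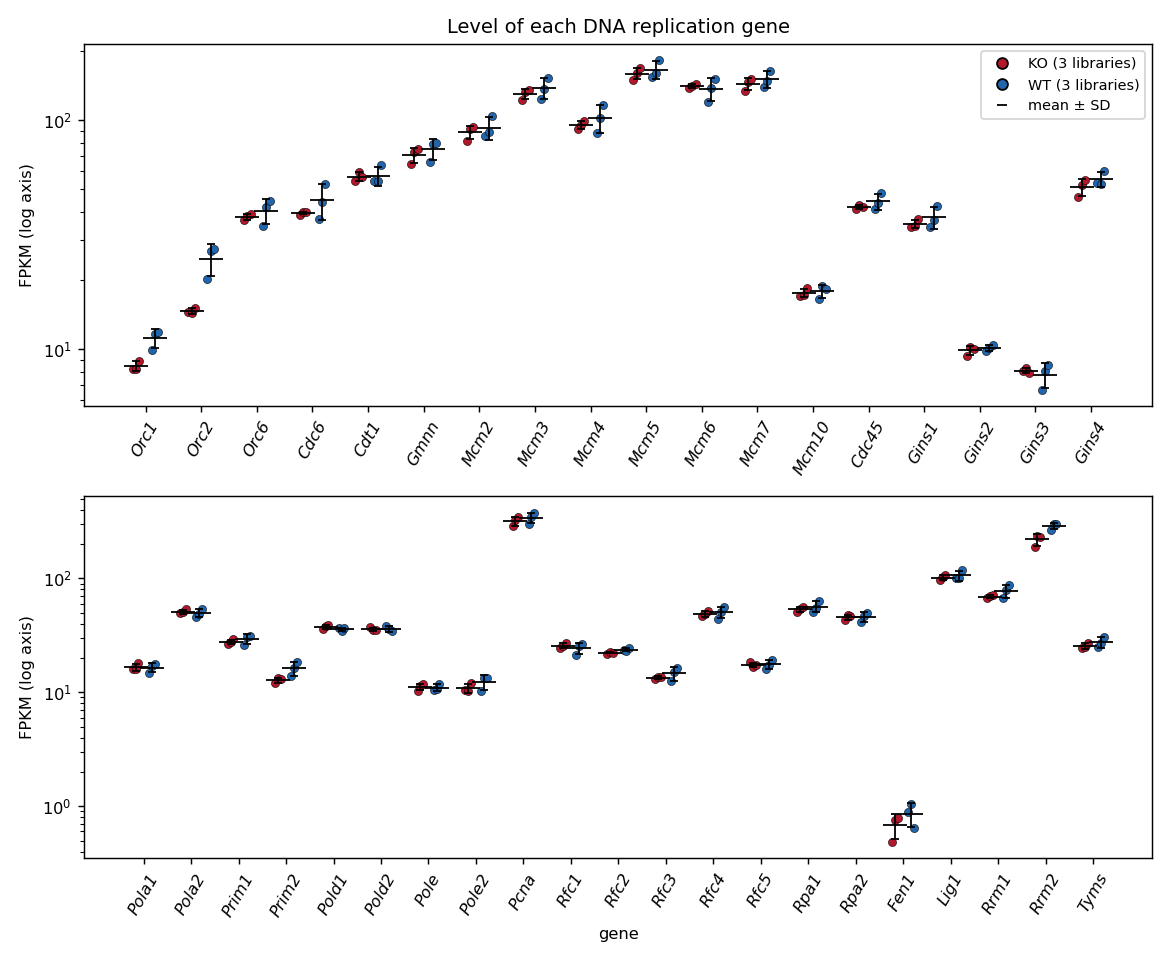
FPKM (y axis, log scale) of each of the 39 replication genes (x axis) in 3 KO libraries (red) and 3 WT libraries (blue), with mean and SD. The groups are apart for Orc1, Orc2, Prim2, Rfc2 and Rrm2, and Fen1 lies far below the other genes.

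The factors that turn the loaded ring into the working helicase did not pass the test. Cdc45, which with GINS and the ring forms the active helicase, had 40.9, 42.7 and 41.9 FPKM in the KO libraries, against 41.1, 43.6 and 48.1 FPKM in the WT libraries. Mcm10, needed to start unwinding, had 17.1, 17.3 and 18.5 FPKM in the KO libraries, against 16.5, 18.9 and 18.3 FPKM in the WT libraries, with overlapping ranges. The GINS subunits were at unequal levels per annotated exon base. Gins4 was the highest, with 46.3, 52.3 and 54.9 FPKM in the KO libraries, against 53.4, 52.8 and 60.1 FPKM in the WT libraries. Gins1 had 34.1, 34.7 and 37.0 FPKM in the KO libraries, against 34.1, 36.9 and 42.4 FPKM in the WT libraries. Gins3 was the lowest in every library, with 8.07, 8.31 and 7.86 FPKM in the KO libraries, against 6.67, 8.04 and 8.59 FPKM in the WT libraries, and its KO values all lay above that of WT replicate 1. Gins2 had 9.40, 10.3 and 10.1 FPKM in the KO libraries, against 9.86, 10.2 and 10.48 FPKM in the WT libraries, and 67.3% of its exon bases are shared with Gse1 on the opposite strand, whose part in the Gins2 level was not tested. None of the 6 genes passed (limma, adjusted p of 0.39 to 0.881), with log2 fold changes of -0.11 to 0.06.

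Among polymerase and primase genes, Prim2 had the lowest log2 fold change. Prim2 encodes the large primase subunit, which works with the catalytic subunit Prim1 and polymerase alpha to lay the first primers. Its values were 12.02, 13.3 and 13.1 FPKM in the KO libraries, against 13.8, 16.4 and 18.5 FPKM in the WT libraries, and no KO library reached the lowest WT library. Its log2 fold change, -0.31 ± 0.104 (SE), did not pass (limma, adjusted p = 0.104). Without WT replicate 1 it was called (adjusted p = 0.0409), and it was not called under any other alternative. Prim1 had 26.5, 27.6 and 29.1 FPKM in the KO libraries, against 26.0, 30.8 and 31.3 FPKM in the WT libraries, which overlapped. The ratio of Prim2 to Prim1, chosen after the values were seen, was 0.449 to 0.482 in KO and 0.532 to 0.592 in WT. Pola1, the catalytic subunit of polymerase alpha, had 15.9, 15.9 and 18.03 FPKM in the KO libraries, against 14.7, 16.997 and 17.7 FPKM in the WT libraries. Pola2, its accessory subunit, had 49.3, 50.3 and 53.4 FPKM in the KO libraries, against 46.1, 49.1 and 54.3 FPKM in the WT libraries.

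The genes of the polymerases that extend the primers did not pass the test. Pold1, the catalytic subunit of polymerase delta, known from yeast as the lagging-strand enzyme, had 35.6, 38.1 and 38.5 FPKM in the KO libraries, against 36.3, 34.3 and 36.3 FPKM in the WT libraries, and Pold2 had 37.1, 34.9 and 35.3 FPKM in the KO libraries, against 38.5, 35.6 and 34.3 FPKM in the WT libraries. Pole, the catalytic subunit of polymerase epsilon, known from yeast as the leading-strand enzyme, had 10.4, 11.3 and 11.8 FPKM in the KO libraries, against 10.50, 10.6 and 11.8 FPKM in the WT libraries. Pole2 had 10.4, 10.3 and 11.97 FPKM in the KO libraries, against 10.3, 13.4 and 13.2 FPKM in the WT libraries, with KO replicates 1 and 2 close to WT replicate 1. Groups overlapped for all 4, and none passed (limma). Pold2 is among the exceptions to the order of libraries described below, since WT replicate 1 was its highest library and WT replicate 3 its lowest.

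Pcna, the sliding clamp that tethers polymerases to DNA, had the highest level of the 39 genes in every library. It had 286, 323 and 343 FPKM in the KO libraries, against 302, 344 and 374 FPKM in the WT libraries, at the 98.9th percentile of tested genes. The KO and WT ranges overlapped widely, and the log2 fold change of -0.10 had a 95% interval of -0.34 to 0.14 (limma, adjusted p = 0.543). The clamp loader subunits stood far lower per length. Rfc4 was the highest of them, with 46.2, 48.5 and 51.4 FPKM in the KO libraries, against 44.1, 51.0 and 55.6 FPKM in the WT libraries, and Rfc3 the lowest, with 13.1, 13.6 and 13.6 FPKM in the KO libraries, against 12.5, 15.0 and 16.3 FPKM in the WT libraries. Rfc1, the large subunit, had 24.4, 25.6 and 27.0 FPKM in the KO libraries, against 21.2, 25.6 and 26.5 FPKM in the WT libraries, and Rfc5 had 18.3, 16.8 and 17.5 FPKM in the KO libraries, against 16.1, 17.3 and 19.2 FPKM in the WT libraries. Rfc2 had 21.9, 22.5 and 22.3 FPKM in the KO libraries, against 23.5, 23.1 and 24.4 FPKM in the WT libraries. All KO values of Rfc2 lay below all WT values by a small margin, and it did not pass (limma, adjusted p = 0.275). Of its exon bases 15.1% are shared with Lat2 on the other strand.

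Genes of single-strand protection and lagging-strand joining did not pass the test, and 1 of them was not tested. Rpa1 and Rpa2 encode subunits of the protein that coats single-stranded DNA. Rpa1 had 50.9, 53.8 and 55.8 FPKM in the KO libraries, against 50.9, 55.3 and 63.1 FPKM in the WT libraries. Rpa2 had 42.9, 47.5 and 46.4 FPKM in the KO libraries, against 41.3, 47.0 and 49.5 FPKM in the WT libraries. Lig1, the ligase that seals Okazaki fragments, had 96.0, 102 and 107 FPKM in the KO libraries, against 99.8, 99.8 and 118 FPKM in the WT libraries. None of these passed (limma, adjusted p of 0.614 to 0.959). Fen1, the nuclease that trims flaps between Okazaki fragments, was listed at 0.486, 0.761 and 0.792 FPKM in the KO libraries, against 0.891, 1.04 and 0.647 FPKM in the WT libraries, which is 19 to 30 fragments in KO libraries and 25 to 41 in WT libraries. Its mean was under the filter of 1 FPKM, so it was not tested, and the groups overlapped. Of its 2422 merged exon bases 84.2% are also exon of Gm10143 or Tmem258 on the opposite strand, and the part of this overlap in the low level was not tested. Tmem258 had 35.2 to 37.9 FPKM in KO and 36.6 to 38.8 FPKM in WT, and Gm10143 was under 0.6 FPKM in every library.

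Among the genes of nucleotide supply, Rrm2 had the second lowest log2 fold change of the 38 genes, between Orc2 and Orc1, and did not pass the test. Rrm2, the subunit that carries the radical and is known to be made mainly in S phase, had 189, 237 and 232 FPKM in the KO libraries, against 266, 299 and 301 FPKM in the WT libraries. KO replicate 1 was lowest, and no KO library reached a WT library. Rrm2 averaged 220 ± 26.2 FPKM in KO and 289 ± 19.6 FPKM in WT (SD, n = 3 each), and the log2 fold change was -0.40 ± 0.0991 (SE) (limma, adjusted p = 0.0525). It was called in 4 of 14 alternatives, among them the filter at 5 FPKM, median-of-ratios scaling and voom (adjusted p = 0.0383, 0.0403 and 0.034), and in no leave-one-out fit. The gene, ENSMUSG00000020649, lies on the plus strand of chromosome 12 from 24708241 to 24714146. Rrm1, the large regulatory and catalytic subunit, had 66.6, 69.3 and 71.5 FPKM in the KO libraries, against 67.0, 78.3 and 87.7 FPKM in the WT libraries, which overlapped. The Rrm2 level was 2.84 to 3.42 times that of Rrm1 in KO and 3.43 to 3.97 times in WT. These ratios are per annotated exon base, with 11012 merged exon bases for Rrm1 and 2771 for Rrm2. In fragments per library, Rrm1 had 10923 to 15393 and Rrm2 had 8476 to 13440. Tyms, which makes thymidylate, had 24.5, 24.8 and 27.2 FPKM in the KO libraries, against 25.01, 26.9 and 30.8 FPKM in the WT libraries, and the groups overlapped.

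Most replication genes ordered the libraries alike within each group. WT replicate 3 was the highest of the 6 libraries for 32 of the 38 tested genes, against 13.3% of all tested genes. Among WT libraries replicate 1 was the lowest for 33 of the 38, against 34.9% of all tested genes. Among KO libraries replicate 1 was the lowest for 31, against 29.1%. As a mean over the 38 genes of the deviation from each gene's own mean on the log2 scale, the libraries stood at -0.11, -0.04 and 0.01 in KO, against -0.09, 0.06 and 0.17 in WT, with group means of -0.05 in KO and 0.05 in WT. In deposited FPKM WT replicate 1 therefore lay among the KO libraries in this measure. For Orc1, Orc2, Pold2, Prim2, Rfc2 and Rrm2 it lay above all KO libraries. For 17 of the 38 genes it was the lowest of all 6 libraries. Library placements were not repeated after scaling. TPM scaling divides WT replicate 1 by 1.163 and the KO libraries by 0.948 to 0.961, so these placements may depend on the scaling. Without WT replicate 3 the median log2 fold change of the 38 genes was -0.001, and without WT replicate 1 it was -0.13.

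**Figure D3:**
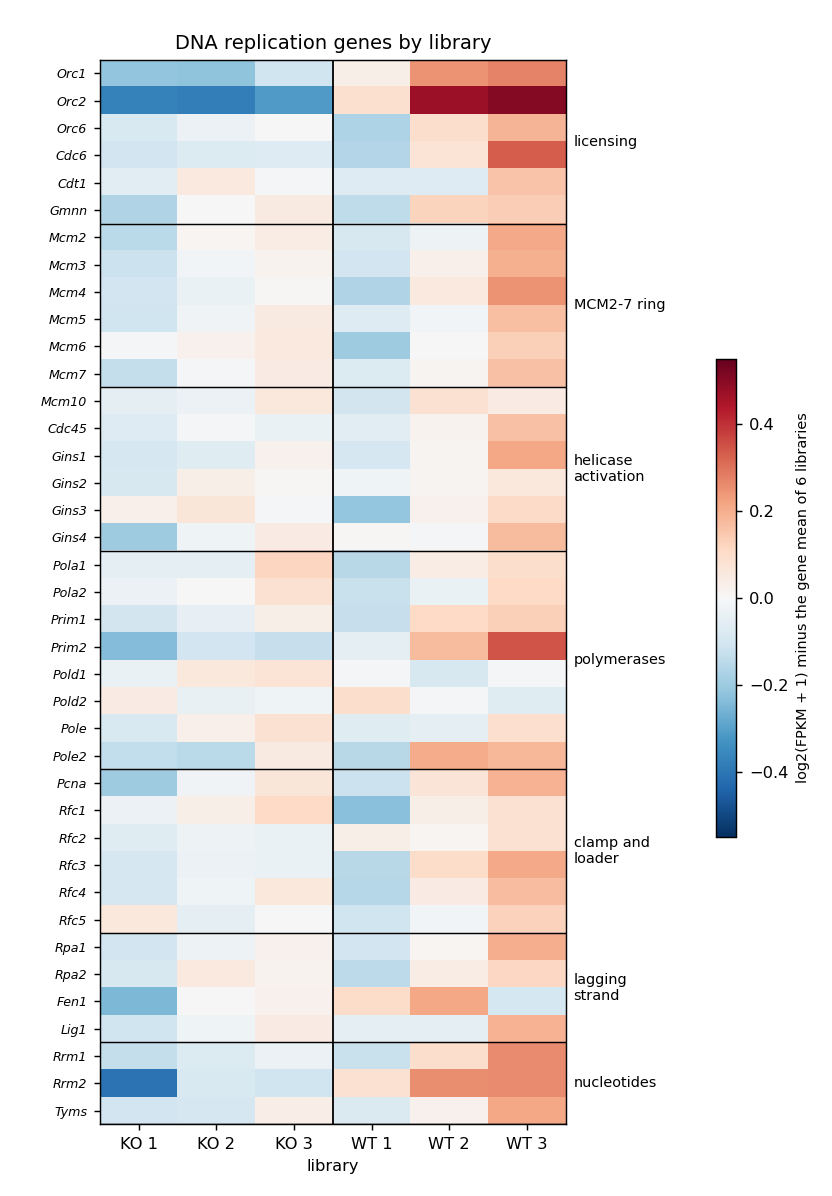
Deviation of each replication gene (rows, grouped by role) from its own mean over the 6 libraries (columns), in log2(FPKM + 1). WT replicate 3 is red in most rows, KO replicate 1 and WT replicate 1 are blue in most, and Orc2 has the deepest contrast between the groups.

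Markers of cell types also differed between libraries, and they are given here beside these values. For the calls given here, 3.62% of all tested genes were called lower and 5.93% higher. All 10 red cell precursor markers were detected, 7 fell in KO and none rose. Their summed level was 90750 to 99870 FPKM in KO and 114400 to 130600 FPKM in WT, mostly globin. The summed 10 hepatoblast and hepatocyte markers ranged over 913 to 1246 FPKM in KO and 348 to 2126 FPKM in WT. WT replicate 3 was lowest and WT replicate 2 highest, and none of the 9 tested markers was called. Alb had 482, 523 and 393 FPKM in the KO libraries, against 354, 964 and 149 FPKM in the WT libraries. The 8 megakaryocyte and platelet markers summed to 411 to 745 FPKM in KO and 165 to 315 FPKM in WT, with WT replicate 3 lowest, and 6 rose. Itga2b, the platelet integrin, had 107, 88.8 and 58.8 FPKM in the KO libraries, against 37.1, 35.0 and 20.5 FPKM in the WT libraries. None of the tested macrophage (8), neutrophil (8), endothelial (6), lymphoid (1) and stem and progenitor (5) markers was called. The other markers of these lists were under the filter or absent. For 3 of the 5 tested stem and progenitor markers all KO values lay above all WT values, against 26.8% of all tested genes. No marker in the table was at 0 in all libraries. Whether the share of these cells has a part in the replication gene values was not tested.

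Other genes of replication and its control, from lists of 108 genes in 8 groups, were read in the same fit. Of these 106 were tested, 2 rose and 8 fell, beside 5.93% higher and 3.62% lower among all tested genes. Of the 8 that fell 5 were mitosis genes. Tfdp2, a partner with which E2F proteins bind DNA, had 27.5, 25.4 and 28.6 FPKM in the KO libraries, against 45.5, 46.6 and 45.2 FPKM in the WT libraries, a log2 fold change of -0.73 at an adjusted p of 0.0016 in limma that was called in all 14 alternatives. E2f2, an E2F factor, had 156, 165 and 175 FPKM in the KO libraries, against 235, 201 and 226 FPKM in the WT libraries, a log2 fold change of -0.41 at an adjusted p of 0.0241 in limma. The other 14 of 16 E2F and pocket protein genes did not pass. Ccne1, cyclin E1, which drives CDK2 at the start of S phase, had 34.3, 38.8 and 38.01 FPKM in the KO libraries, against 51.6, 58.5 and 67.4 FPKM in the WT libraries, a log2 fold change of -0.65 at an adjusted p of 0.0148 in limma, and was the gene called among 11 origin firing factors. The call of E2f2 was kept in 7 of 14 alternatives and in 2 of the 6 leave-one-out fits, and was lost with no filter and with TPM and non-globin scaling. That of Ccne1 was kept in 10 of 14 and in 4 leave-one-out fits, but not with the TPM or the non-globin scaling.

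Of 7 genes of alternative clamp loaders and clamp regulation 2 rose. Chtf8, a subunit of an alternative clamp loader, had 38.8, 42.2 and 39.3 FPKM in the KO libraries, against 34.1, 34.3 and 33.0 FPKM in the WT libraries, a log2 fold change of 0.24 at an adjusted p of 0.0378 in limma. Cdkn1a, a cyclin-dependent kinase inhibitor that also binds the clamp, had 4.15, 4.92 and 4.55 FPKM in the KO libraries, against 3.40, 3.16 and 3.05 FPKM in the WT libraries, a log2 fold change of 0.40 at an adjusted p of 0.0319 in limma. Chtf8 was called in 4 of 14 alternatives and Cdkn1a in 4 of 13, each in 1 of the 6 leave-one-out fits, and neither with median-of-ratios scaling. Among 21 other replisome subunits, 16 other nucleotide synthesis genes, 9 chromatin replication genes and 8 checkpoint genes that were tested, none was called (limma). Of these lists 1, 10, 1 and 1 genes had an unadjusted p under 0.05 in limma, against 28.7% of all tested genes. In the nucleotide synthesis list 13 of 16 log2 fold changes were positive, with a median of 0.17 as deposited, beside 7952 of 11142 positive and a median of 0.09 for all tested genes.

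Mitosis genes, measured for comparison, had 5 of 18 lower in KO and none higher (limma), with a median log2 fold change of -0.16. Among all tested genes 3.62% were called lower and 5.93% higher. Ube2c, the ubiquitin-conjugating enzyme of the anaphase-promoting complex, had 151, 147 and 152 FPKM in the KO libraries, against 247, 212 and 268 FPKM in the WT libraries, a log2 fold change of -0.68 (adjusted p = 0.00863). Nusap1 and Cenpf, of the spindle and the kinetochore, had log2 fold changes of -0.48 and -0.34, and Mki67, a common marker of cycling cells, had -0.35. The fifth was Ccnb2, cyclin B2, at -0.31, named after its value was seen. Ube2c was called in all 14 alternatives, while the other 4 calls were lost with no filter and with TPM and non-globin scaling. Nusap1 and Cenpf were called in 3 of the 6 leave-one-out fits, and Mki67 and Ccnb2 in 1. WT replicate 3 was the highest of all libraries for 15 of the 18, as it was for most replication genes, but WT replicate 1 stood at 0.04 in the mean deviation of the mitosis genes, above all KO libraries, at -0.13, -0.12 and -0.06. These placements are in deposited FPKM, and TPM scaling lowers WT replicate 1 against the KO libraries. The difference between the replication and mitosis lists was not tested.

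**Figure D4:**
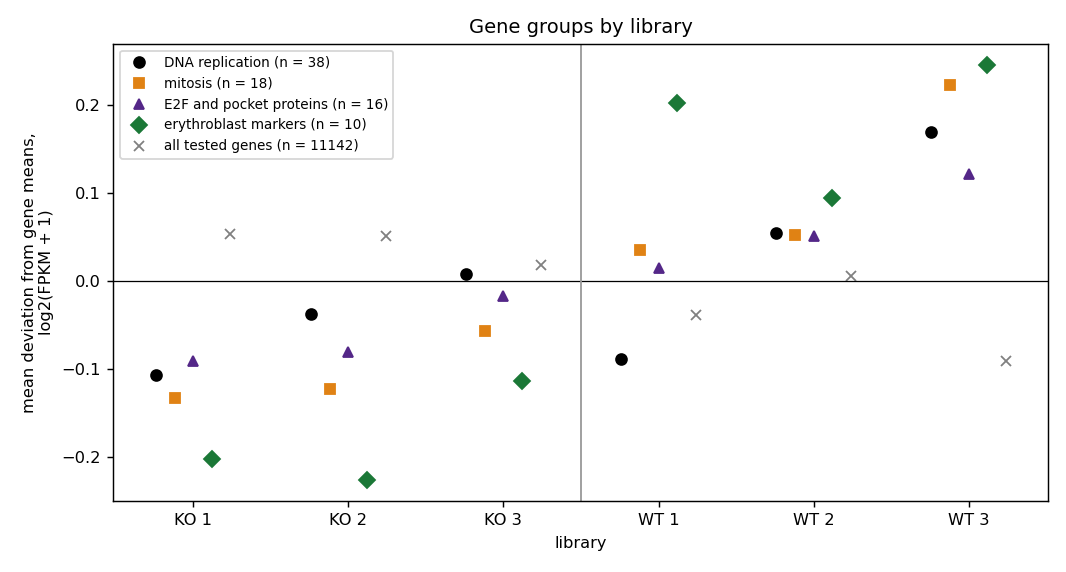
Mean deviation from gene means (y axis, log2 of deposited FPKM + 1, without further scaling) of 4 gene groups and of all tested genes in each library (x axis), KO left and WT right. Replication genes overlap between the groups with WT replicate 1 at -0.09, while the mitosis genes and the red cell precursor markers of all WT libraries lie above those of all KO libraries.

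Values were also set beside the E2F words of the promoters. The 13 tested replication genes with a word had a median log2 fold change of -0.06, with 1 called lower, Orc1, and the 17 with a window but no word had -0.07, also with 1 called lower, Orc2. Across the transcriptome, the 407 tested genes with a word had a median of 0.05, with 16 higher and 17 lower, and the 7501 with a window but no word had a median of 0.10, with 459 higher and 286 lower. These are descriptions of genes that share a short string and were given no test.

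**Figure D5:**
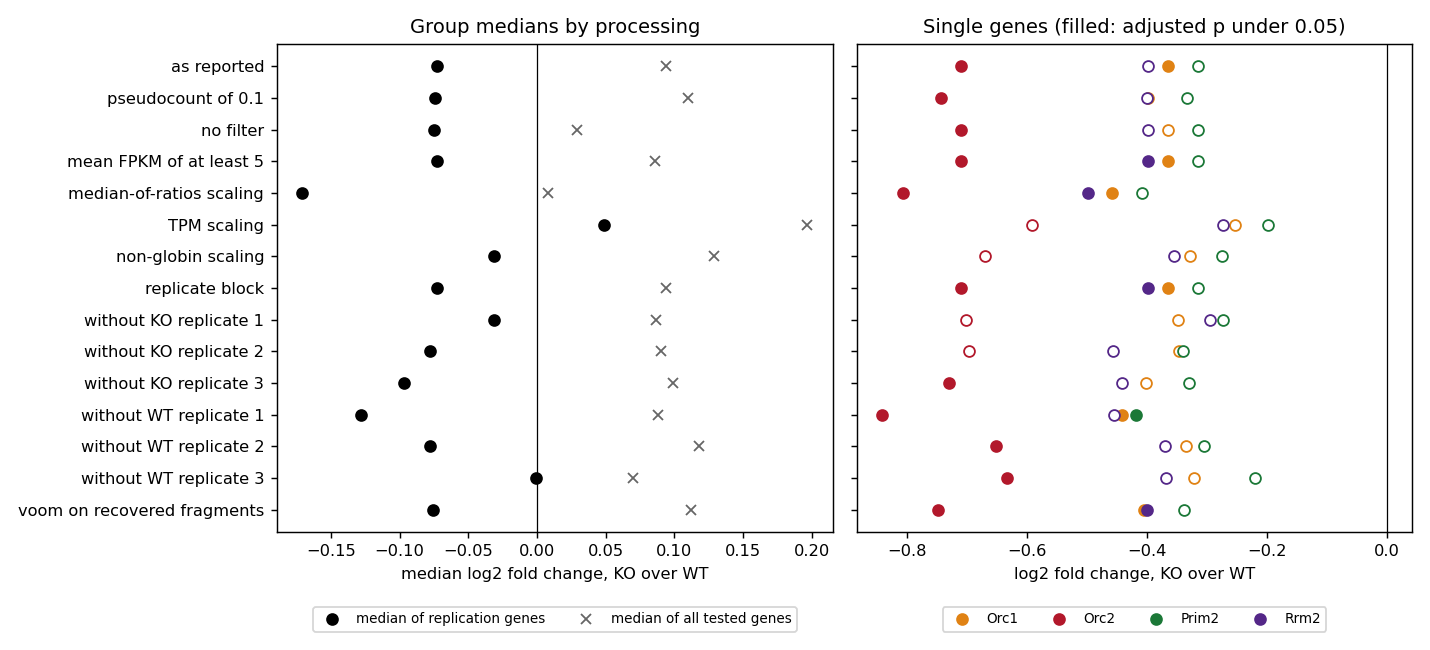
Left, median log2 fold change of KO over WT (x axis) of the replication genes and of all tested genes under each way of processing (y axis). Right, the same for Orc1, Orc2, Prim2 and Rrm2, filled where adjusted p was under 0.05. The replication median lies below the median of all genes in every row, and Orc2 is the lowest of the 4 genes in every row.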

How the data were processed

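Total RNA of mouse fetal liver, in 3 KO and 3 WT libraries, was sequenced as paired 150-base reads, per the labels' protocols. FPKM values came in a single table by the authors, with a column per library. Aligner, counter, strand setting and genome build were not given in the sources used here. Gene positions equalled those of GENCODE M21 (GRCm38) for 23608 of 26014 identifiers and for 38 of the 39 replication genes, Pola2 being the exception. Of the lines in the file, 7 spilled lines and 1 empty line were left out, and 24 symbols turned into dates were restored. Low values were whole multiples of 1 fragment, within 0.02, for 98.8% to 99.1% of those checked, which gave the fragments per library. With 3 fragments on 1 kilobase as the floor, a level of 0.185 to 0.203 FPKM was the least that could be told from 0, for counting error only.

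Values were taken as log2(FPKM + 1), genes with a mean of at least 1 FPKM were kept, and groups were compared two-sided with limma 3.58.1 (R 4.3.3), with a mean-variance trend, 4 residual degrees of freedom and Benjamini-Hochberg adjustment over all 11142 genes. The fit was tested on simulated data. Tables and figures used Python 3.11.15, pandas 2.3.3, numpy 2.4.6 and matplotlib 3.10.9. Alternative fits changed the pseudocount (to 0.1), the filter (none, or a mean of at least 5 FPKM) or the scaling (3 kinds), added a replicate block, left out each library, or used limma's voom on recovered fragments, the last added after the data were seen. The members and lists were chosen with earlier results of these data known. Genes named were all 39 members, Gata1, Alb, Klf1 and Itga2b, and in each related list those that passed, or the 4 with the smallest p where more did. Other genes are named as neighbours or subunits, and Ccnb2 after its value was seen. A further marker gene is not reported here.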

Additional observations from a re-analysis of the deposited data

How the results depend on the processing

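No replication gene was called higher in KO under any of the 14 alternatives, and Gata1 was called lower in all of them, with log2 fold changes of -1.24 to -1.01. The number of replication genes called lower, 2 as reported, was 1 with no filter, 0 with TPM scaling and 0 with non-globin scaling, and 0 to 3 when 1 library was left out. With no filter, 267 of all genes were higher and 246 lower, and of the related lists 0 were higher and 3 lower. Median-of-ratios scaling gave 252 higher among all genes and 0 higher in the related lists. TPM scaling gave 134 lower among all genes, and 1 higher and 2 lower in the related lists. Non-globin scaling gave 330 higher and 135 lower among all genes, and 0 higher and 2 lower in the related lists. Leaving out 1 library gave 62 to 736 higher and 111 to 395 lower among all genes, and 0 to 4 higher and 2 to 8 lower in the related lists. The cause of these moves was not tested.

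Of the 36 replication genes not called, the log2 fold change turned sign for 23 with TPM scaling, 8 with median-of-ratios scaling and 6 with non-globin scaling. Leaving out 1 library turned the sign of 1 to 9 of them, with 9 without WT replicate 3 and 8 without WT replicate 1. The TPM factor of WT replicate 1 was 1.163, against 0.948 to 0.998 for the other libraries. Same-numbered KO and WT libraries deviated with correlations of -0.0974, 0.0116 and 0.256, the last being the highest of any KO and WT pair. The labels name no pairs. Deviations were centred within groups of 3 libraries, so these values cannot decide whether the numbers pair the samples. A replicate block gave 686 higher and 386 lower among all genes, 3 replication genes lower (Rrm2 with adjusted p = 0.0204 besides Orc1 and Orc2), and 0 higher and 10 lower in the related lists. With 3 libraries a group, small differences could be missed. Calls rest on adjusted p, so a 95% interval without 0 did not always give a call. Examples are Prim2, at -0.56 to -0.07, and Rrm2, at -0.63 to -0.16.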
